A study of Homo sapiens with 21 samples.

Results

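The genes of the integrated stress response and of transfer RNA (tRNA) charging were followed in poly-A selected RNA from SK-MEL-147 cells, which are an established human melanoma line. The set of 42 genes was chosen by name from the 26475 genes of the count table: 6 transcription factors, 5 genes of feedback and growth control, 11 enzymes of amino acid and glutathione metabolism, 4 amino acid transporters, 2 secreted or surface proteins, 13 cytosolic tRNA synthetases and the tRNA exporter XPOT. All 42 were found in the table and 41 had enough counts to be tested. The exception was NUPR1, a stress-induced transcriptional regulator, with 0 to 9 counts in any library. There were 21 sequenced libraries in 7 groups of 3. One group was left untreated and the others were given TP-472 (a ligand of the BRD9 and BRD7 bromodomains), JQ-1 (a ligand of the BET bromodomain proteins), GSK-591 (an inhibitor of the arginine methyltransferase PRMT5), MS023 (an inhibitor of the type I arginine methyltransferases), GSK-484 (an inhibitor of the arginine deiminase PADI4) or UNC0642 (an inhibitor of the lysine methyltransferases EHMT1 and EHMT2). The sources used here give no dose, exposure time or vehicle. All groups were the same line, and the same 3 untreated libraries served every comparison with untreated cells.

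In the integrated stress response, kinases that sense amino acid shortage, haem shortage, double-stranded RNA or misfolded protein phosphorylate the initiation factor eIF2, which lowers protein synthesis in general while the mRNA of the transcription factor ATF4 is translated more. ATF4 switches on genes that make, import and charge amino acids, together with the transcription factors DDIT3 (CHOP) and ATF3 and the ATF4 inhibitor TRIB3. PPP1R15A (GADD34) closes the loop by bringing a phosphatase to eIF2. The tRNA synthetases join each amino acid to its tRNA, and many cytosolic members are known ATF4 targets. In melanoma, phosphorylation of eIF2 and translation of ATF4 have been tied to the invasive state with low MITF. The measurements here are of mRNA only, so neither eIF2 phosphorylation nor ATF4 protein was read.

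ATF4 binds, as a dimer with a C/EBP protein, to a composite site (the C/EBP-ATF response element, CARE) with the core TGATGNAA, where N is any base. Promoter windows of 300 bases, from 250 before to 50 after the annotated start (RefSeq, GRCh38.p14), were searched for this core on both strands. Of the 32 genes of the set with a promoter entry, 13 held a match (40.6%), beside 1217 of 27305 genes of the RefSeq promoter table (4.46%). The matches were in AARS, ASNS, ATF3, CARS, CEBPG, CHAC1, GARS, IARS, MARS, NARS, SLC3A2, SLC7A1 and TARS. No window was read for NUPR1, EIF4EBP1, PSPH, SHMT2, PYCR1, GPT2, SLC7A11, LARS, YARS and VARS. The following windows of 30 bases, 5′ to 3′ on the gene's own strand, are shown because they carry the core (in capitals, read on either strand) both in genes that rose and in genes that fell with JQ-1.
ASNS: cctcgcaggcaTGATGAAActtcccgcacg
CHAC1: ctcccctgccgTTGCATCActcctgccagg
ATF3: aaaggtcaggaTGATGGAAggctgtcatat
AARS: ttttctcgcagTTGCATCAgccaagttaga
TARS: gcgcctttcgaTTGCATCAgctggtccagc
CEBPG: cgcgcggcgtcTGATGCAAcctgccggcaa
MARS: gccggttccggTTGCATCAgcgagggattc
IARS: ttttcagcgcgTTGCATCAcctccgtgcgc
NARS: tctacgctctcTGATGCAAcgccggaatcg
The first 5 belong to genes that rose with JQ-1 and the last 4 to genes that fell. The ASNS core began 68 bases before the start (window chr7:97872458-97872487, minus strand) and the AARS core 187 bases before it (window chr16:70289675-70289704, minus strand). The CHAC1 window was chr15:40953251-40953280 (plus strand), that of ATF3 chr1:212565205-212565234 (plus), of TARS chr5:33440956-33440985 (plus) and of CEBPG chr19:33374060-33374089 (plus). The MARS window was chr12:57488053-57488082 (plus), the IARS window chr9:92293692-92293721 (minus) and the NARS window chr18:57621804-57621833 (minus). Of the 13 genes with a match, 7 rose and 5 fell with JQ-1, and of the 19 without one, 7 rose and 9 fell, where 35.7% of all genes tested were called higher and 37.6% lower. A match is a run of letters and not a measured binding site.

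Totals were 20978182 to 78776788 expected counts per library, and the common coefficient of variation between replicates was 5.09%. Levels are CPM (counts scaled to a common library size) of the TMM-adjusted total, fold changes are on the log2 scale with their SE, and a gene was called where its edgeR adjusted p was under 0.05. A lower level in bulk RNA cannot tell fewer expressing cells from less RNA per cell. Whether the biological replicates were separate cultures is not said, and the p-values reflect only how far these samples differ. Of the melanocyte lineage markers, SOX10 was at 349 to 603 CPM and MITF at 9.24 to 19.0, and the pigment genes PMEL, MLANA, TYR and DCT were each at 0.45 CPM or less. S100B, the remaining marker of that list, was at 0.25 CPM or less. Of the markers of dedifferentiated melanoma, AXL was at 1770 to 2065 CPM, NGFR at 112 to 306, EGFR at 47.1 to 82.05 and SOX9 at 20.03 to 39.9. Of 8 markers of blood, endothelial and epithelial cells, the macrophage marker CD68, which many other cells also express, was at 119 to 163 CPM, and the other 7 had medians over the libraries of 0.483 CPM or less. Untreated libraries stood apart in base composition: the slope of log2 CPM on transcript GC content, per 10 percentage points, was -0.18 to -0.099 in them and -0.039 to 0.13 in the 18 treated libraries. Every comparison with untreated cells was therefore also read after each library's GC trend was removed, and against the other treated groups (the other 4 without JQ-1, or for JQ-1 the other 5). The 2 direct comparisons (GSK-591 with MS023, and TP-472 with JQ-1) involve no untreated library.

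**Figure D1:**
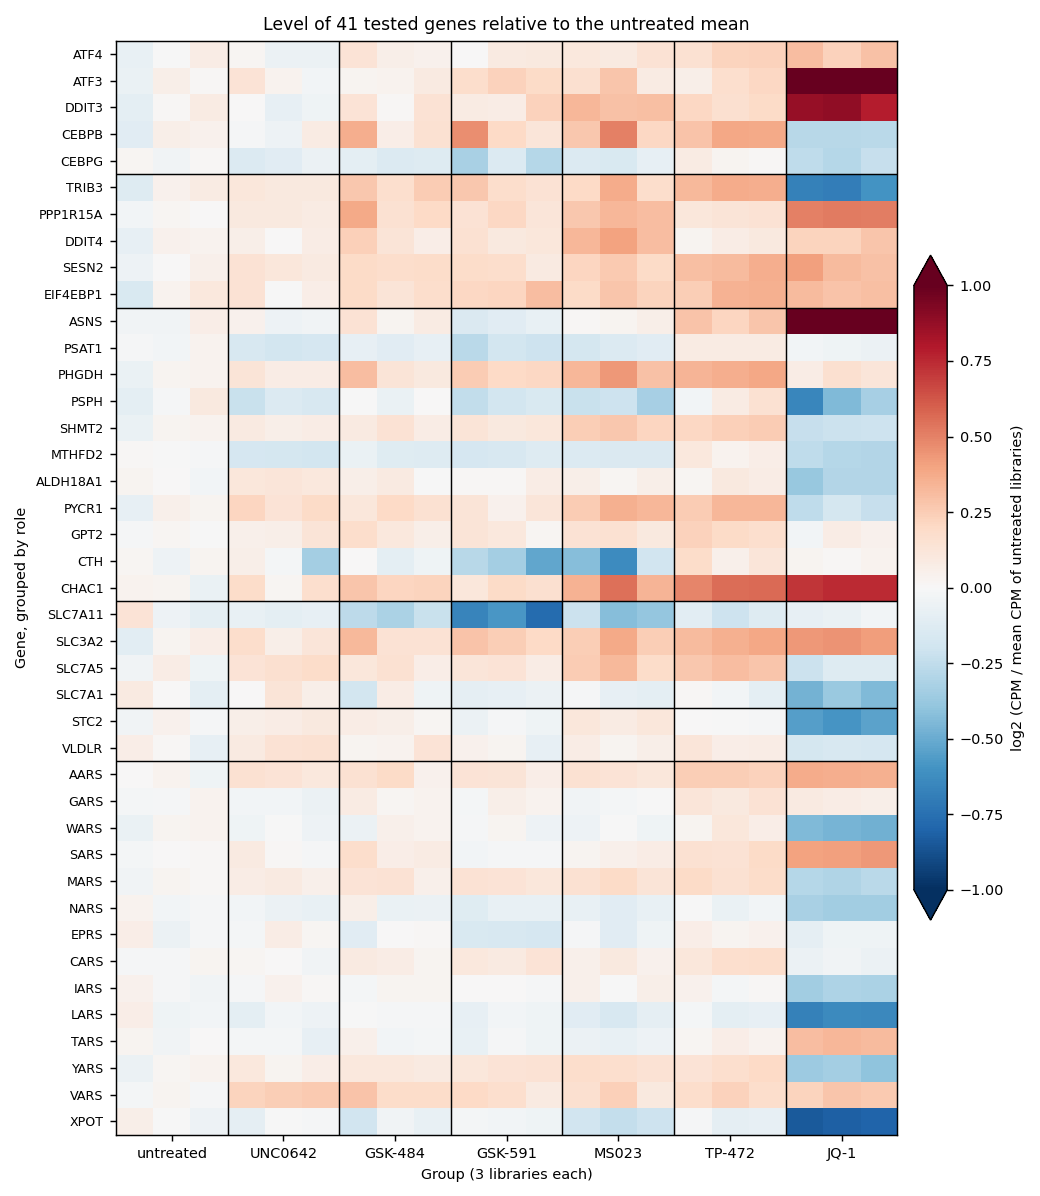
Each row is 1 of the 41 tested genes in its role group, each column 1 library, and the colour is log2 of the CPM over the mean CPM of the 3 untreated libraries (scale -1 to 1, larger values at the end colour). The 3 JQ-1 libraries hold the darkest red cells (ATF3, ASNS) and the darkest blue cells (XPOT). TRIB3 with JQ-1 and SLC7A11 with GSK-591 are also dark blue, and the TP-472 columns are mostly pale red.

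JQ-1 split the set. Of 41 tested genes, 16 rose and 19 fell against untreated cells, with ASNS, ATF3, DDIT3 and CHAC1 rising most and XPOT, TRIB3, LARS and STC2 falling most. JQ-1 moved much of the transcriptome: 73.3% of all genes tested were called, 35.7% higher and 37.6% lower, so the count of calls alone says little about these genes. The median change of the set was -0.060 beside -0.0064 over all genes. With total-count scaling, which lowered the median of all genes to -0.15, 14 rose and 24 fell (27.1% and 45.7% of all genes), and PHGDH (-0.025) and GARS (-0.072) no longer had a positive change. Without the GC trend 14 rose and 20 fell (36.0% and 37.5%). In all 4 fits (untreated or treated reference, with or without the GC trend) 12 genes were called higher and 19 lower, beside 31.2% and 33.3% of all genes.

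Among the transcription factors, ATF4 (chr22:39519695-39522685 on hg38), the effector of the response, stood at 532, 559 and 590.1 CPM in the untreated libraries and 695, 656 and 686 CPM with JQ-1. The 3 JQ-1 libraries lay above the untreated ones, with a log2 fold change of 0.28 ± 0.041 (adjusted p = 2.05e-06). ATF3 (chr1:212565334-212620777), an early stress-induced member of the same family, went from 17.3, 18.9 and 18.3 CPM to 41.98, 40.6 and 37.5. Its change was 1.14 ± 0.059 (adjusted p = 4.05e-14), and the groups did not overlap. DDIT3 (chr12:57516588-57521737), a C/EBP-family factor tied to cell death under prolonged stress, was at 22.9, 24.7 and 25.96 CPM in untreated cells and 44.7, 45.3 and 42.2 CPM with JQ-1, again without overlap (0.85 ± 0.053, adjusted p = 1.31e-12). Its exons share 355 bases, 27.2% of the gene's exonic bases, with MARS on the opposite strand, and it is not known whether the counting used strand. MARS itself fell with JQ-1 (-0.28). The other C/EBP genes of the set, CEBPB (-0.27) and CEBPG (-0.26), fell, unlike DDIT3.

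The feedback genes went in opposite directions. TRIB3 (chr20:362835-397559), a pseudokinase that is an ATF4 target and inhibits ATF4, was at 72.5, 81.9 and 83.9 CPM in untreated cells and 49.7, 49.2 and 52.4 with JQ-1, all 3 below every untreated library (-0.65 ± 0.055, adjusted p = 2.52e-10). PPP1R15A (chr19:48872392-48876057), the eIF2 phosphatase subunit, was at 169, 175 and 173 CPM and rose to 245, 248 and 246 (0.51 ± 0.042, adjusted p = 1.45e-10). Here, too, the groups did not overlap. The mTORC1 restrainers SESN2 (0.34) and DDIT4 (0.24) rose, as did EIF4EBP1 (0.30), whose product holds back cap-dependent translation. DDIT4 has a GC content of 65.1%, and its change against untreated cells was -0.013 once the GC trend was removed. It was called higher against the other treated groups, both with and without the GC trend.

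In amino acid and glutathione metabolism, 3 of 11 genes rose and 5 fell, beside 35.7% and 37.6% of all genes. ASNS (chr7:97852118-97872542), which makes asparagine from aspartate, was at 191, 192 and 206 CPM in untreated cells and 444, 449 and 444 with JQ-1. That is a log2 change of 1.19 ± 0.038 (adjusted p = 6.97e-18), and the treated group means other than JQ-1 lay between 182 and 234 CPM. In the GENCODE 29 annotation 44.6% of the exonic bases of ASNS are shared with a non-coding transcript on the same strand. CHAC1 (chr15:40952962-40956519), which breaks down glutathione, rose from 19.4, 19.4 and 18.1 CPM to 31.1, 31.8 and 31.7 (0.73 ± 0.058, adjusted p = 7.80e-11). The other enzyme that rose was PHGDH (0.12), the first step of serine synthesis, and its sign was the opposite against the other treated groups (-0.12). The 5 that fell were PSPH (-0.47), the last step of serine synthesis, the mitochondrial one-carbon enzymes SHMT2 (-0.22) and MTHFD2 (-0.28), and the proline enzymes ALDH18A1 (-0.32) and PYCR1 (-0.22). PSAT1, GPT2 and CTH did not pass the test against untreated cells (-0.042, 0.030 and 0.023). Against the other treated groups PSAT1 and CTH were called higher and GPT2 lower, with or without the GC trend.

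Of the transporters, the heavy chain SLC3A2, which carries several amino acid transporters to the membrane, rose (0.43), and its partner SLC7A5, the large neutral amino acid transporter, fell (-0.16). SLC7A1 (chr13:29509410-29595688), an arginine and lysine importer, was at 182, 172 and 161 CPM in untreated cells and 123, 132 and 126 with JQ-1. All 3 JQ-1 libraries were lower (-0.43 ± 0.055, adjusted p = 2.27e-07). SLC7A11, the light chain of the cystine-glutamate exchanger, was at 44.1, 44.5 and 45.8 CPM with JQ-1, within the untreated range of libraries, and was not called (-0.062). It was called higher against the other treated groups (0.24). The secreted hormone gene STC2 (chr5:173314713-173329503) fell from 207, 218 and 211 CPM to 145, 141 and 146 without overlap (-0.56 ± 0.03, adjusted p = 8.15e-14). VLDLR (chr9:2621834-2660053), a lipoprotein receptor, was at 49.2, 47.5 and 44.6 and 41.7, 42.2 and 41.98 CPM, a smaller fall (-0.17 ± 0.044, adjusted p = 0.00175).

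The synthetases did not move as a block with JQ-1: of 13, 5 rose, 6 fell and 2 did not pass the test. Of all genes tested, 35.7% were called higher and 37.6% lower, so a split of this kind was not particular to the synthetases. The synthetases that rose charge serine, alanine, threonine, valine and glycine: SARS (0.42), AARS (0.36), TARS (0.32), VARS (0.25) and GARS (0.072). Against the other treated groups neither VARS nor GARS was called. With the GC trend also removed, VARS was called higher. The synthetases that fell charge leucine, tryptophan, tyrosine, asparagine, isoleucine and methionine: LARS (-0.65), WARS (-0.46), YARS (-0.37), NARS (-0.34), IARS (-0.32) and MARS (-0.28). EPRS (-0.060) and CARS (-0.052) were not called against untreated cells. CARS was called lower without the GC trend, and against the other treated groups with or without it. EPRS was not called in those fits either. LARS (chr5:146113038-146182660) was at 306, 283 and 287 CPM in untreated cells and 183, 188 and 186 with JQ-1, without overlap (-0.65 ± 0.035, adjusted p = 6.39e-14). YARS (chr1:32775237-32818153) went from 255, 269.6 and 271 CPM to 206, 209.5 and 201 (-0.37 ± 0.032, adjusted p = 4.42e-10). XPOT (chr12:64404350-64451127), which carries tRNA out of the nucleus, had the largest fall of the set, from 350.2, 335 and 325 CPM to 188, 191 and 193 (-0.82 ± 0.04, adjusted p = 1.33e-14). Its 3 JQ-1 libraries lay below every other library of the series. Of the 7 other cytosolic synthetase genes, outside the set, 5 rose with JQ-1 (FARSB, 0.40; RARS, 0.32; QARS, 0.26; HARS, 0.25; FARSA, 0.24) and KARS (-0.21) and DARS (-0.29) fell. The 17 mitochondrial synthetases were split as well, with 8 higher and 7 lower, beside the same shares of all genes.

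**Figure D2:**
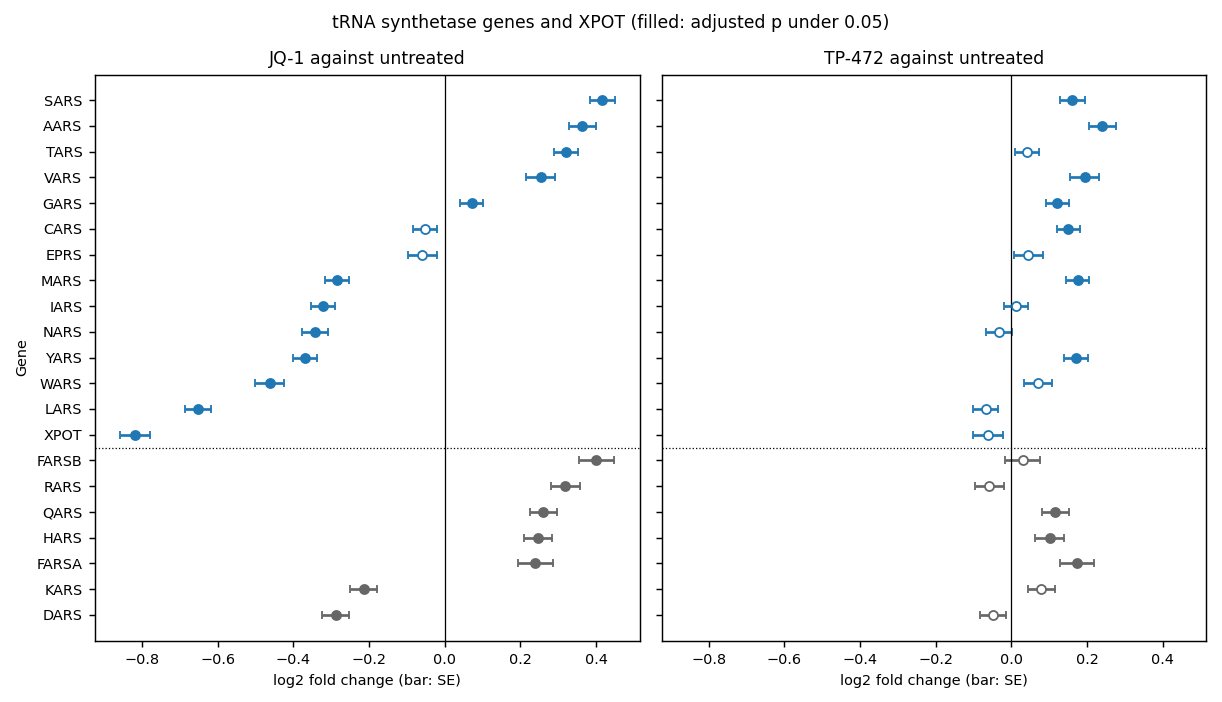
Points are log2 fold changes against untreated cells with their SE as bars, for JQ-1 (left) and TP-472 (right), n = 3 libraries per group, and filled points passed the edgeR test. Blue genes belong to the set, and grey genes under the dotted line are the 7 other cytosolic synthetases. With JQ-1 the genes run from SARS (0.42) to XPOT (-0.82), and with TP-472 they lie between -0.069 (LARS) and 0.24 (AARS).

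Other genes of the pathway, from lists outside the set, are read against the same 35.7% of all genes called higher and 37.6% lower with JQ-1. Of 18 further ATF4 targets tested, 4 rose and 10 fell, with a median of -0.21. GDF15 (-3.38), a stress-induced secreted factor, BCAT1 (-1.67), which starts branched-chain amino acid breakdown, and ALDH1L2 (-1.55), a mitochondrial folate enzyme, were among those that fell, and PCK2 (0.57) and SLC1A4 (0.32) among those that rose. Of 14 genes of the eIF2 machinery, 7 rose and 4 fell. The kinase genes EIF2AK2 (-1.15; PKR) and EIF2AK3 (-0.65; PERK) fell, and EIF2AK1 (0.16; HRI) and EIF2AK4 (0.15; GCN2) rose. In the unfolded protein response of the endoplasmic reticulum, 6 of 18 genes rose and 8 fell, with ERN1 (IRE1) at 1.69, its splicing target XBP1 at -0.77 and the chaperone HSPA5 at 0.33. The numbers higher and lower without the GC trend were 5 and 9 for the ATF4 targets, 8 and 4 for the eIF2 machinery and 5 and 4 for the unfolded protein response.

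With TP-472 the called genes of the set went in 1 direction. Of 41 tested genes 23 rose and 0 fell, where 17.3% of all genes tested were called higher and 14.5% lower (31.8% in all). The median change was 0.15 beside 0.012 over all genes, so most changes were small. With total-count scaling 22 rose and 1 fell (14.8% and 14.3%). Once the GC trend was removed, 20 rose and 2 fell, beside 5.42% and 7.69% of all genes. Against the other 4 treated groups 22 were higher and 0 lower, beside 3.90% and 4.70%. The genes called were not all the same in these fits: 11 were higher in all 4, namely ASNS, CHAC1, PHGDH, PSAT1, SLC3A2, SESN2, TRIB3, AARS, CARS, GARS and SARS, beside 1.12% of all genes. The count of 0 lower genes was by edgeR with TMM. At an unadjusted p under 0.05 there was 1, SLC7A11, which DESeq2 and both other scalings called lower and which was called higher against the other treated groups (0.19).

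ATF4 was at 622, 652 and 659 CPM with TP-472, all 3 libraries above the untreated ones (0.20 ± 0.041, adjusted p = 8.43e-04). It was higher than in the other treated groups as well (0.14), and was not called after removal of the GC trend (0.10). DDIT3 stood at 28.3, 27.4 and 28.01 CPM, above the untreated libraries (0.19 ± 0.054, adjusted p = 0.0103), and was not called against the other treated groups (0.063). ATF3 was at 18.98, 20.4 and 21.04 CPM and did not pass the test (0.15, adjusted p = 0.0630). CEBPB rose by 0.35, a value that was 0.074 without the GC trend and no longer called. The feedback gene TRIB3 rose to 99.5, 103 and 102 CPM, above every untreated library (0.36 ± 0.053, adjusted p = 6.69e-05), the opposite of its direction with JQ-1. SESN2 (0.33) and EIF4EBP1 (0.32) rose, and PPP1R15A, at 187, 189 and 191 CPM, rose slightly (0.13 ± 0.042, adjusted p = 0.0212). The PPP1R15A value turned to -0.013 without the GC trend and to -0.070 against the other treated groups. DDIT4 was not called against untreated cells (0.066) and was lower without the GC trend (-0.20).

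Of the metabolic genes, 7 of 11 rose, beside 17.3% of all genes called higher. CHAC1 had the largest change of the set, at 26.5, 28.00 and 28.1 CPM with TP-472 (0.54 ± 0.057, adjusted p = 3.88e-06). No TP-472 library overlapped the untreated ones, and the change was 0.32 without the GC trend and 0.31 against the other treated groups, called in both. ASNS was at 239, 227 and 237 CPM, above the untreated libraries (0.26 ± 0.038, adjusted p = 6.43e-05). The serine synthesis genes PHGDH (0.36) and PSAT1 (0.081) rose, with PSPH at 0.072 and not called. PYCR1 (0.31), SHMT2 (0.23) and GPT2 (0.20), an alanine aminotransferase, rose too, and none of these 3 was called without the GC trend. MTHFD2 (0.071) and CTH (0.12), which makes cysteine from cystathionine, were not called against untreated cells and were higher than in the other treated groups (0.21 and 0.35).

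SLC3A2 (0.35) and SLC7A5 (0.29), the 2 chains of the large neutral amino acid transporter, rose together with TP-472. SLC3A2 was called in all 4 fits, and SLC7A5 was not called against untreated cells without the GC trend. SLC7A11 was at 43.5, 40.4 and 42.6 CPM with TP-472 against 51.4, 45.1 and 43.5 CPM in untreated cells and was not called (-0.15, adjusted p = 0.0548). Against the other treated groups it was higher, by 0.19 (adjusted p = 0.0113), and by 0.18 with the GC trend removed as well. SLC7A1, STC2 and VLDLR overlapped the untreated libraries (-0.036, -0.0045 and 0.084). Of the 13 synthetases 7 rose, beside 17.3% of all genes called higher. These 7 were AARS (0.24), VARS (0.19), MARS (0.17), YARS (0.17), SARS (0.16), CARS (0.15) and GARS (0.12). YARS was at 292, 299 and 304 CPM, above the untreated range (0.17 ± 0.032, adjusted p = 4.53e-04). LARS (288, 272 and 275 CPM) and XPOT (334, 316 and 318 CPM) overlapped the untreated libraries and were not called (-0.069 and -0.061). Without the GC trend 9 of the 13 synthetases were higher and 0 lower, beside 5.42% and 7.69% of all genes. Against the other treated groups 5 were higher and 0 lower (3.90% and 4.70%), and VARS, MARS and YARS were not called.

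**Figure D3:**
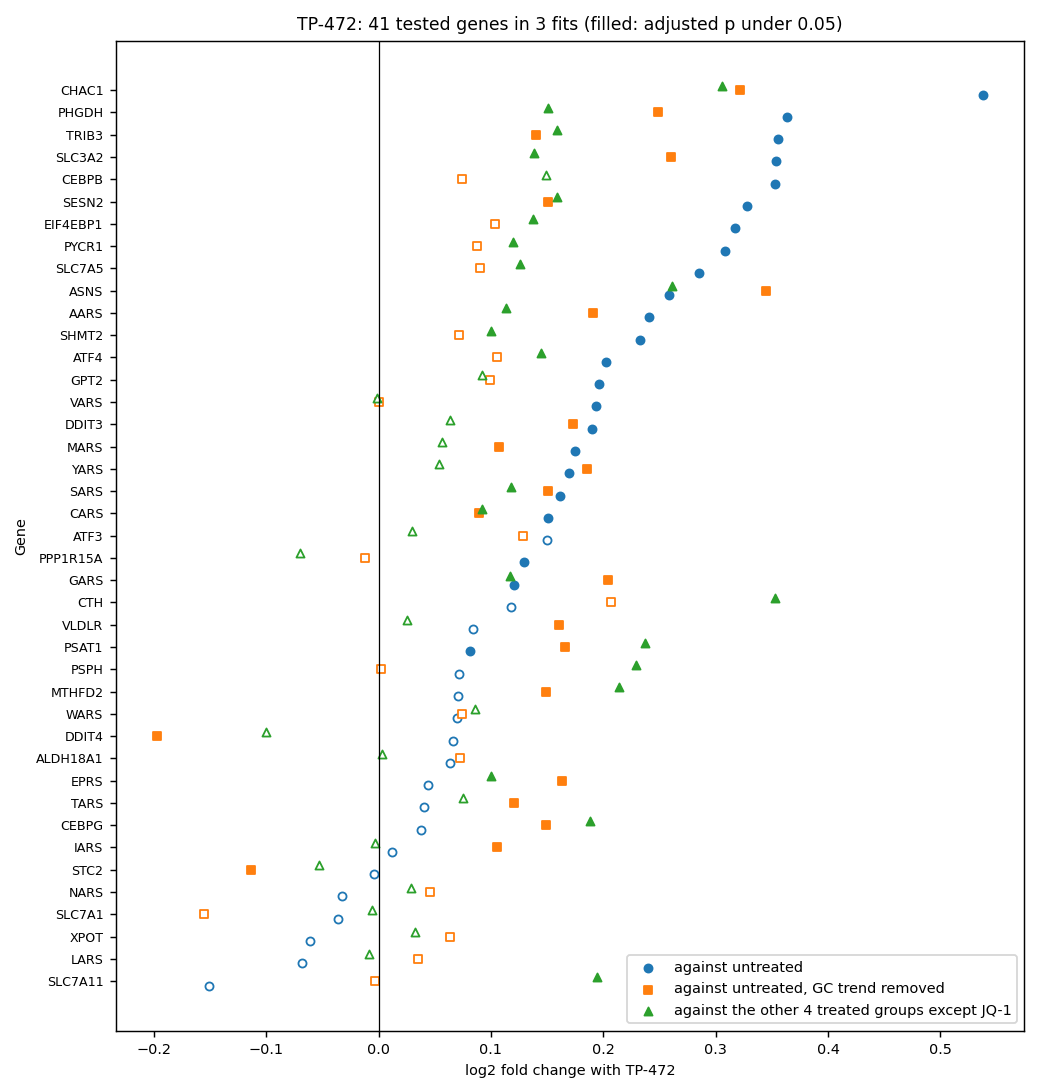
Each gene has its log2 fold change with TP-472 in 3 fits: against untreated cells (circles), the same with the GC trend removed (squares) and against the other 4 treated groups without JQ-1 (triangles), with filled symbols for adjusted p under 0.05. CHAC1 is highest against untreated cells, and the filled symbols lie right of 0 except the squares of DDIT4 and STC2.

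The place of TP-472 among the groups was read without any reference group. Leaving out JQ-1, TP-472 had the highest mean of the other 6 groups for 25 of 41 genes, beside 15.8% of all genes tested, and the lowest mean for 0, beside 13.6%. Untreated cells had the lowest mean for 19 genes (27.8% of all genes), and GSK-591 for 11 (16.4%). These are counts of rank only, from levels with the GC trend left in, and carry no test. Outside the set, 7 of 18 further ATF4 targets rose with TP-472 and 3 fell, where 17.3% of all genes were called higher and 14.5% lower. JDP2 (0.55), a dimer partner of AP-1 factors, CBS (0.37), which makes cystathionine, and PCK2 (0.31) were among those that rose, and KLHL24 (-0.36) and BCAT1 (-0.36) among those that fell. Of 18 chaperone and unfolded protein response genes 1 rose (CRELD2, 0.24) and 7 fell, among them DNAJB9 (-0.33) and HSPA5 (-0.11). Of the eIF2 machinery 4 of 14 rose and 3 fell, the latter with EIF2AK3 (-0.20). The median GC content of the ATF4 targets was 55.9%, that of the eIF2 genes 44.7% and that of all genes 49.8%. After removal of the GC trend the numbers higher and lower were 4 and 3 for the ATF4 targets, 0 and 4 for the unfolded protein response and 3 and 0 for the eIF2 machinery, beside 5.42% and 7.69% of all genes.

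The direct comparison of TP-472 with JQ-1 asks how the 2 bromodomain ligands differ. Of 41 genes 24 were higher with TP-472, 9 were higher with JQ-1 and 8 did not pass the test, where 72.3% of all genes tested were called, 37.5% higher and 34.8% lower with TP-472. With total-count scaling the split was 27 and 6 (45.6% and 25.9%). The genes higher with JQ-1 were ATF3 (-0.99), ASNS (-0.93), DDIT3 (-0.66), PPP1R15A (-0.38), TARS (-0.28), SARS (-0.26), CHAC1 (-0.20), DDIT4 (-0.18) and AARS (-0.12). AARS kept that side with RLE scaling but was at 0.011 with total-count scaling. TRIB3 had the largest difference in the other direction (1.01 ± 0.055, adjusted p = 1.03e-13), followed by XPOT (0.76), CEBPB (0.63), LARS (0.58), STC2 (0.56), PSPH (0.54), YARS (0.54), WARS (0.53) and PYCR1 (0.52). ATF4 differed by -0.075 ± 0.041 and was not called (adjusted p = 0.103), with overlapping libraries.

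Of the 11 genes of amino acid and glutathione metabolism, 8 were higher with TP-472 (37.5% of all genes), from PSAT1 (0.12) to PSPH (0.54). The others of these 8 were PHGDH, SHMT2, MTHFD2, ALDH18A1, PYCR1 and GPT2. ASNS (-0.93) and CHAC1 (-0.20) were higher with JQ-1, and CTH (0.095) was not called. Of the 13 synthetases 3 were higher with JQ-1 (34.8% of all genes). The 8 higher with TP-472 (37.5%) were LARS (0.58), YARS (0.54), WARS (0.53), MARS (0.46), IARS (0.33), NARS (0.31), CARS (0.20) and EPRS (0.10). Removal of the GC trend gave 24 genes higher and 12 lower with TP-472 (37.6% and 36.2% of all genes).

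**Figure D4:**
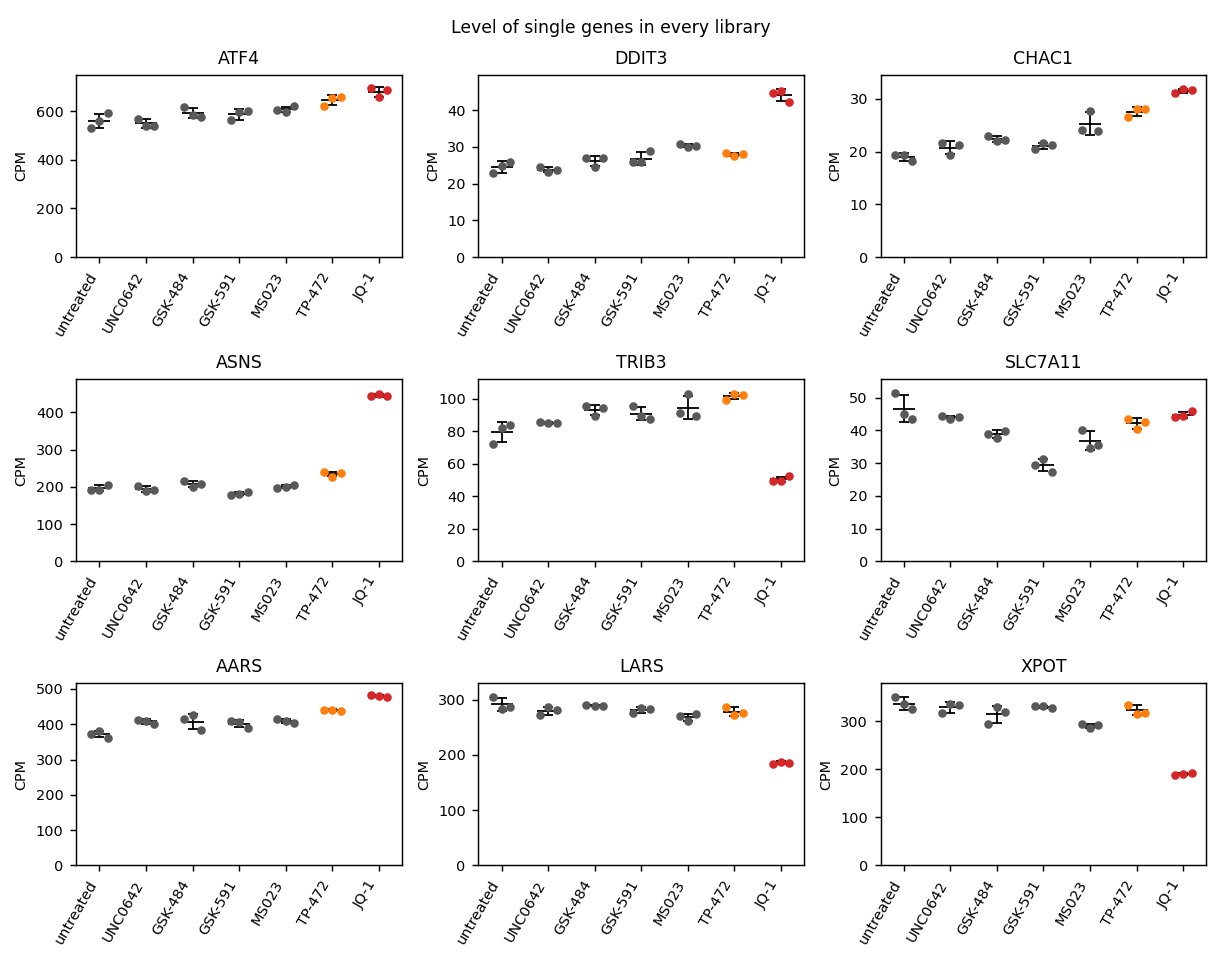
CPM of single genes in every library (points, 3 per group) with the group mean and SD (dash and bar), on axes from 0, with JQ-1 in red and TP-472 in orange. ASNS and DDIT3 are highest and TRIB3, LARS and XPOT lowest in the 3 JQ-1 libraries, and SLC7A11 is lowest in the 3 GSK-591 libraries.

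MS023 gave 21 higher and 9 lower genes of 41, where 42.6% of all genes tested were called, 22.0% higher and 20.6% lower. The median change was 0.10 beside -0.0083 over all genes. The call count fell from 30 to 15 (12 higher, 3 lower) without the GC trend, beside 9.62% and 8.78% of all genes. Against the other 4 treated groups it was 12 (9 higher, 3 lower), beside 9.86% and 9.00%. With total-count scaling 16 rose and 11 fell (16.9% and 26.5%). In all 4 fits PHGDH, PPP1R15A and DDIT3 were higher (2.85% of all genes) and PSPH lower (2.82%).

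DDIT3 was at 30.8, 29.95 and 30.2 CPM with MS023, all above the untreated libraries (0.31 ± 0.054, adjusted p = 8.82e-05). PPP1R15A was at 208, 217 and 214 CPM, also above them (0.30 ± 0.042, adjusted p = 7.31e-06). ATF4, at 602, 597 and 620.0 CPM, rose by 0.11 (adjusted p = 0.0274), and had a change of -0.0027 once the GC trend was removed. CHAC1 stood at 24.1, 27.7 and 23.9 CPM, with replicate 2 above the others (0.42 ± 0.058, adjusted p = 7.82e-06). Without the GC trend CHAC1 was not called with either reference. The serine pathway split, with PHGDH higher (0.35) and PSPH (-0.25) and PSAT1 (-0.14) lower. CTH had the largest fall (-0.42), followed by SLC7A11 (-0.34) at 40.2, 34.8 and 35.7 CPM. Against untreated cells without the GC trend, CTH, SLC7A11 and PSAT1 were not called. Against the other treated groups CTH was lower, and SLC7A11 and PSAT1 were not called. Among the synthetases, VARS (0.16), YARS (0.16), MARS (0.16) and AARS (0.14) rose and LARS (-0.12) and NARS (-0.086) fell. Once the GC trend was removed, VARS was called lower (-0.089, adjusted p = 0.0379), YARS (0.20) and MARS (0.085) stayed higher, and AARS (0.090), LARS (0.035) and NARS (0.034) were not called. Of the other calls, ATF4, CEBPB, CEBPG, TRIB3, SESN2, EIF4EBP1 and STC2 also changed sign in that fit, with 0 of these 7 called. XPOT fell by 0.21 and remained lower against the other treated groups (-0.16), also with the GC trend removed. Against untreated cells it was not called without the GC trend (-0.032).

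GSK-591 gave 16 higher and 8 lower genes, where 32.9% of all genes tested were called, 18.1% higher and 14.8% lower. With total-count scaling the split was 4 higher and 12 lower (10.5% and 22.1% of all genes), so the number of rises depended on the scaling. Without the GC trend 5 were higher and 7 lower (7.89% and 6.73%), and against the other 4 treated groups 0 were higher and 9 lower, beside 4.24% and 3.31% of all genes. In that last fit 14 of the 41 genes had an unadjusted p under 0.05. SLC7A11, CEBPG and PSAT1 were lower in all 4 fits, beside 1.67% of all genes.

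SLC7A11 (chr4:138164097-138242349), which imports cystine for glutathione synthesis, had the largest change of the set with GSK-591. It was at 29.5, 31.1 and 27.4 CPM, below all 18 other libraries (-0.68 ± 0.062, adjusted p = 4.01e-07), and the change was -0.51 without the GC trend and -0.47 against the other treated groups. Part of its reads were shared with other genes, since its expected counts were fractional in most libraries. CTH, the other cysteine supply gene of the set, was lower against untreated cells (-0.38) and not called in the other fits. ASNS was at 177, 181 and 186 CPM, below the untreated libraries (-0.11 ± 0.039, adjusted p = 0.0315), and its change without the GC trend was -0.017. Against the other treated groups ASNS was lower by more (-0.20, adjusted p = 4.18e-04), also with the GC trend removed (-0.20). PSAT1 (-0.22), PSPH (-0.19), MTHFD2 (-0.15), CEBPG (-0.25) and EPRS (-0.16) fell. The rises included CEBPB (0.27), EIF4EBP1 (0.25), SLC3A2 (0.24), PHGDH (0.22), ATF3 (0.20) and TRIB3 (0.20). DDIT4 was called in opposite directions, higher against untreated cells (0.12) and lower once the GC trend was removed (-0.14, adjusted p = 0.00321). The rises of CEBPB, TRIB3, SESN2, SHMT2, SLC7A5 and VARS turned to negative values without the GC trend, from -0.013 (CEBPB) to -0.086 (SLC7A5), and none of these 6 was called there. CHAC1, at 20.5, 21.6 and 21.2 CPM, lay above the untreated libraries but was not called (0.15, adjusted p = 0.0559). ATF4 and DDIT3 overlapped the untreated libraries (0.065 and 0.14).

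Set directly against MS023, GSK-591 gave 10 lower genes and 1 higher of 41, where 9.89% of all genes tested were called, 5.43% higher and 4.46% lower. Total-count scaling gave 9 lower and 1 higher (3.43% and 4.42% of all genes higher and lower). Removal of the GC trend gave 10 lower and 1 higher as well (5.16% and 4.86% higher and lower), with CEBPG, PSAT1 and EPRS lower in place of PPP1R15A, SLC7A5 and SHMT2. The 10 lower with GSK-591 were SLC7A11 (-0.33), CHAC1 (-0.26), DDIT4 (-0.23), PYCR1 (-0.22), DDIT3 (-0.17), PPP1R15A (-0.15), SLC7A5 (-0.15), ASNS (-0.14), STC2 (-0.14) and SHMT2 (-0.13), and XPOT was higher (0.18). SLC7A11 differed by -0.33 ± 0.063 (adjusted p = 0.00177), with all GSK-591 libraries below all MS023 libraries, and CHAC1 by -0.26 ± 0.059 (adjusted p = 0.00645). Of the 13 synthetases 0 were called with edgeR and 0 with DESeq2, and 1 had an unadjusted p under 0.05. Without MS023 replicate 2, 5 genes were called in place of 11. That library had the highest CHAC1, TRIB3 and SLC3A2 of its group and the highest GC slope of the 21 libraries (0.13).

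GSK-484 gave 16 higher and 4 lower genes, where 19.1% of all genes tested were called, 11.4% higher and 7.66% lower. The sizes were small: the rises ran from 0.10 (YARS) to 0.25 (PPP1R15A), and the largest fall was that of SLC7A11 (-0.27) at 38.9, 37.6 and 39.9 CPM. With total-count scaling 7 rose and 5 fell (6.93% and 9.88% of all genes). Without the GC trend 1 of 41 was called, with ASNS higher at 0.15 (0.664% and 0.863% of all genes higher and lower), and the rises of DDIT4, EIF4EBP1, SHMT2 and PYCR1 turned to values of -0.016 to -0.086. Against the other 4 treated groups 0 were (beside 0.0929% and 0.0332%), with 6 at an unadjusted p under 0.05. The count of 20 fell to 5 without untreated replicate 1, to 11 without GSK-484 replicate 1 and to 13 without GSK-484 replicate 2.

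UNC0642 gave 6 higher and 2 lower genes, where 16.3% of all genes tested were called, 8.71% higher and 7.54% lower. The rises were VARS (0.24), PYCR1 (0.18), SLC7A5 (0.16), AARS (0.13), VLDLR (0.13) and ALDH18A1 (0.12), and the falls were MTHFD2 (-0.18) and PSAT1 (-0.17). VLDLR was at 50.02, 52.00 and 52.3 CPM, above the untreated libraries (0.13 ± 0.043, adjusted p = 0.0457). With total-count scaling 3 rose and 4 fell (4.61% and 10.9% of all genes), without the GC trend 4 rose and 4 fell (1.67% and 2.12%), and without untreated replicate 3 the count was 5. ATF4 (569, 539 and 539 CPM) and DDIT3 (24.5, 23.1 and 23.7 CPM) overlapped the untreated libraries. Against the other 4 treated groups 18 genes were lower with UNC0642 and 2 higher, beside 13.3% and 14.2% of all genes, with ATF4 at -0.14, DDIT3 at -0.23, CHAC1 at -0.22 and TRIB3 at -0.15. With the GC trend also removed 12 were lower and 4 higher (11.3% and 14.2%). MTHFD2 and PSAT1 were lower in all 4 fits (0.770% of all genes).

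All 6 comparisons with untreated cells share the same 3 untreated libraries, so calls repeated among them are not independent, and the values are set side by side. AARS was called higher in each: 0.36 with JQ-1, 0.24 with TP-472, 0.14 with MS023, 0.13 with UNC0642, 0.13 with GSK-484 and 0.11 with GSK-591. Removal of the GC trend left AARS called with JQ-1 (0.33) and TP-472 (0.19) and not with the other 4 (0.063 to 0.099). VARS was likewise called higher in each: 0.25 with JQ-1, 0.19 with TP-472, 0.16 with MS023, 0.24 with UNC0642, 0.22 with GSK-484 and 0.15 with GSK-591. In the fit without that trend VARS was higher with JQ-1 (0.089) and UNC0642 (0.12), lower with MS023 (-0.089) and not called with TP-472, GSK-484 and GSK-591. SESN2 was called higher with every compound except UNC0642, and without the GC trend with JQ-1 (0.20) and TP-472 (0.15). EIF4EBP1 had the same calls against untreated cells and was called without the GC trend with JQ-1 alone (0.11). MTHFD2 was called lower with every compound except TP-472. After GC trend removal it was lower with JQ-1 (-0.21) and UNC0642 (-0.12), higher with TP-472 (0.15) and not called with the other 3.

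Some values carry a limit of counting. Besides DDIT3 and MARS, exons of DDIT4 (41.2% of exonic bases, with DDIT4-AS1), MTHFD2 (27.2%, with SLC4A5), PYCR1 (15.6%) and CEBPB (11.8%) overlap a gene on the opposite strand in GENCODE 29. Expected counts of CEBPB, SLC7A11, SLC7A5 and VLDLR were fractional in most libraries, and those of YARS in 33.3%, so part of their reads was divided among genes.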

How the data were processed

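Poly-A selected RNA of 21 SK-MEL-147 libraries was sequenced. The deposited table holds expected counts per gene, made by the authors with Bowtie2 2.1.0 and RSEM 1.2.15 on hg38, per the submitters' processing notes. Annotation, strand setting and read filters were not given in those notes. Expected counts were rounded, filtered (filterByExpr, minimum count 10, minimum total 15) and scaled by TMM in edgeR 4.0.16 (R 4.3.3), which left 15062 genes.

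All 21 libraries were fitted with group as the only term by the edgeR quasi-likelihood test, two-sided, with Benjamini-Hochberg adjustment over all genes tested. Each SE is the absolute log2 fold change over the square root of F, and n = 3 libraries per group throughout. Alternatives were DESeq2 1.42.0, RLE and total-count scaling, no filter, a replicate block, 2 groups fitted alone, other treated groups as the reference, libraries left out, and removal of each library's GC trend (loess, span 0.3, 4 iterations; GENCODE 29 transcripts; GC known for 96.8% of genes tested).

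The genes and the lists beside them were chosen with earlier results of these data known, so their counts are descriptions. The 42 genes are all accounted for by name. Values by library were given, by rule, for ATF4, CHAC1, DDIT3, ASNS and in each role the 2 genes (3 among synthetases and XPOT) with the widest range of group means. They were printed for some groups and not for every group. Positions are from GENCODE 29 and promoter sequences from RefSeq (GRCh38.p14). Total counts per library limit the precision of low genes, and sequencing batches are not given.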

Additional observations from a re-analysis of the deposited data

How the results depend on the processing

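The counts of called genes for JQ-1, TP-472 and TP-472 against JQ-1 stayed within 1.5 times of their value under every alternative tried. The largest dependence was on base composition and reference. Without the GC trend the count was 15 for MS023, 12 for GSK-591 and 1 for GSK-484, from 30, 24 and 20. Against the other treated groups it was 12, 9 and 0, and 20 for UNC0642 from 8. With the GC trend also removed these 4 were 9, 10, 0 and 16. Total-count scaling gave 12 for GSK-484. Fitted alone with untreated cells, GSK-484 gave 0 and UNC0642 gave 5. For the counts of 0 with GSK-484 (all edgeR), 4 to 15 genes had an unadjusted p under 0.05. Leaving out 1 library at a time gave 5 to 19 for GSK-484, 5 to 8 for UNC0642 and 5 to 9 for GSK-591 against MS023. The GSK-484 count of 20 thus rests on few libraries and on the untreated reference. The cause of these shifts was not tested.

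A replicate number as a block changed the count for TP-472 from 23 to 24 and for UNC0642 from 8 to 7. It gave 35 for JQ-1, 30 for MS023, 25 for GSK-591 and 20 for GSK-484. With the GC trend removed, the replicate block gave 15 for MS023, 13 for GSK-591 and 0 for GSK-484. Numbers shared across groups did not pair the libraries: the correlation of their deviations was -0.16 to 0.14 (median -0.0024) over 63 pairs, and 4 of 21 libraries correlated best with their own number.

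Of the genes with values given by library, these, called in at least 1 of the fits compared, changed sign, given as log2 changes, and the cause was not tested. Without the GC trend: PPP1R15A (TP-472 -0.013), TRIB3 (GSK-591 -0.020, MS023 -0.032), XPOT (GSK-591 0.11), ATF4 (MS023 -0.0027), STC2 (MS023 -0.031) and LARS (MS023 0.035). With the replicate block as well: PPP1R15A (TP-472 -0.012), TRIB3 (GSK-591 -0.020, MS023 -0.031), XPOT (GSK-591 0.11), ATF4 (MS023 -0.0025), STC2 (MS023 -0.031) and LARS (MS023 0.035). Against the other treated groups: SLC7A11 (TP-472 0.19, GSK-484 0.047, JQ-1 0.24, UNC0642 0.27), PPP1R15A (TP-472 -0.070, GSK-591 -0.035, UNC0642 -0.12), CHAC1 (GSK-591 -0.18, GSK-484 -0.067, UNC0642 -0.22), TRIB3 (GSK-591 -0.040, UNC0642 -0.15) and YARS (GSK-484 -0.031, UNC0642 -0.077). Against them without the GC trend: SLC7A11 (TP-472 0.18, GSK-484 0.017, MS023 0.028, JQ-1 0.25, UNC0642 0.22), PPP1R15A (TP-472 -0.078, GSK-591 -0.046), CHAC1 (GSK-591 -0.19, GSK-484 -0.039, UNC0642 -0.13), TRIB3 (GSK-591 -0.051, MS023 -0.065) and YARS (GSK-484 -0.039, UNC0642 -0.089). The other alternatives (DESeq2, both other scalings, the unfiltered fit, the block alone, 2 groups alone, a library left out) reversed 0 changes of these genes that were called in either fit. Among the other genes of the set, total-count scaling turned the signs of PHGDH and GARS with JQ-1 and of AARS in TP-472 against JQ-1, as given above. SLC7A11 was called lower with TP-472 by DESeq2, both other scalings, the unfiltered fit and the block, unlike in the results above.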
